A study of Mus musculus with 10 samples.

Results

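The endoplasmic reticulum (ER) machinery of mature B cells was read across reporter-positive and reporter-negative cells, as 41 genes for protein folding, translocation into the ER and the unfolded protein response. The genes were named in a list, and all 41 were among the 14450 genes of the deposited table. By role they are 10 lumenal chaperones and co-chaperones, 2 lectin chaperones, 4 protein disulfide isomerases, 5 stress sensors and transcription factors, 8 genes of ER-associated degradation, 3 genes of the Sec61 channel, 4 of the translocon-associated protein complex and 5 of the signal peptidase complex.

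Proteins bound for the cell surface or for secretion are threaded into the ER through the Sec61 channel, lose their signal peptide there, and are folded by chaperones and disulfide isomerases. When unfolded protein accumulates, the sensors IRE1 (gene Ern1), PERK (gene Eif2ak3) and ATF6 switch on the unfolded protein response, which raises chaperone genes, slows translation and sends misfolded protein to degradation. B cells are known for enlarging this machinery when they become antibody-secreting plasma cells.

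RNA was sequenced from Chat+ mature B cells and from Chat- mature B cells, with 5 libraries each. Chat-GFP mice at steady state gave the bone marrow, and the cells were FACS sorted. Both groups carry this reporter for Chat, the gene of choline acetyltransferase, so they are fractions of one strain and not different genotypes. The labels give neither the age of the mice nor the sorting gates, nor whether libraries of one group stem from different mice, so each p-value measures only the spread between these libraries. Levels are in CPM, the usual scale on which the values of each library sum to the same total, and fold changes are on the scale of log2(CPM + 0.1148).

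Chat itself had 70.6 ± 28.9 CPM for Chat+ and 7.498 ± 7.25 CPM for Chat- libraries (SD, n = 5 each; limma adjusted p = 0.087), with no overlap. Estimated depth was 21530000 to 30060000 reads per library. The 11 B cell markers summed to 18800 to 21430 CPM in Chat+ and 19820 to 20080 CPM in Chat-, Ighm being the largest at 6801 and 5647 CPM. Of the 11, 4 were higher and 7 lower in Chat+, among them Fcer2a (763 ± 102 CPM for Chat+, 966 ± 50.3 CPM for Chat-, SD, n = 5) and Ighd (2206 ± 314 and 2704 ± 272 CPM), 0 of which passed. Of 11 T and NK cell markers, 9 were not among the listed genes, and the other 2 together summed to 1.38 to 3.805 CPM in Chat+ and 0 to 3.36 CPM in Chat-. Some other lists were higher. Erythroid markers summed to 565 to 932 CPM in Chat+ and 488 to 1143 CPM in Chat-. Neutrophil markers summed to 21.8 to 142 CPM in Chat+ and 46.4 to 117 CPM in Chat-. Of 7 plasmacytoid dendritic cell markers measured, 1 was higher and 6 were lower in Chat+, and 0 passed. Chat- replicate 4 stood apart, with 1213 genes at the lowest value against 62 to 682 in the other 9 libraries and with 11.9% mitochondrial transcripts against 2.27% to 3.85%. Values without it are given where it moves a printed fold change by over 1.5 times or turns its sign.

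Many ER genes carry in their promoters the ER stress response element, ERSE, which is bound by ATF6 and the factor NF-Y, or its shorter form ERSE-II. RefSeq promoter windows of GRCm38.p6, from 250 bases before to 50 after the gene's start, were found for 33 of the 41 genes; Hyou1, Manf, Atf6, Derl1, Sec61a1, Ssr2, Spcs3 and Sec11c had none. The exact letters of ERSE (CCAAT, any 9 bases, then CCACG, on either strand) stood in the windows of 8 of these 33 genes, or 24.2%. The share was 0.137% of 27025 genes with a window, and 0.161% of the 9919 of these that the deposited values cover. ERSE-II (ATTGG, any 1 base, then CCACG) stood in 2 of 33, or 6.06%, against 0.044% of the 27025 and 0.081% of the 9919 genes. The stretches below are shown because they mark the genes of the list that share this control element. Each runs 5′ to 3′ along the strand on which the element reads CCAAT or ATTGG first, with the 2 parts of the element in capitals and 15 bases to either side.

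Hspa5 (chr2:34772010-34772058, plus strand): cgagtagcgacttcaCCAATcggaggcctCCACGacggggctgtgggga
Hsp90b1, near element (chr10:86705518-86705566, plus strand): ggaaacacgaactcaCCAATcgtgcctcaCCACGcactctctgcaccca
Hsp90b1, far element (chr10:86705623-86705671, minus strand): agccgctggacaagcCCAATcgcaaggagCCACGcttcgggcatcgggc
Dnajc3 (chr14:118937812-118937860, plus strand): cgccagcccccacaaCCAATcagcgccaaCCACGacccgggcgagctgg
Creld2 (chr15:88819505-88819553, minus strand): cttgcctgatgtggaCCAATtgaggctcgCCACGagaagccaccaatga
Calr (chr8:84847060-84847108, plus strand): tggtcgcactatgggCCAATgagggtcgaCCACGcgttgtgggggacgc
Canx (chr11:50325785-50325833, minus strand): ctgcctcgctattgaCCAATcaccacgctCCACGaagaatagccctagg
Pdia6 (chr12:17266476-17266524, plus strand): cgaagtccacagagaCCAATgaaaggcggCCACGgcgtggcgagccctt
Syvn1 (chr19:6046517-6046565, plus strand): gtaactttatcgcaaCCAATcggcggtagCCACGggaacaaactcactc
Dnajb11, ERSE-II (chr16:22857837-22857877, plus strand): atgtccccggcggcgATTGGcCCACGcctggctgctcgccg
Herpud1, ERSE-II (chr8:94386362-94386402, plus strand): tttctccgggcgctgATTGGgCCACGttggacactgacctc

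The whole window of Hspa5, the gene of the chaperone BiP and the textbook target of the response, lies on the plus strand at chr2:34771840-34772139 and is shown with its 1 exact ERSE in capitals.

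Hspa5 window: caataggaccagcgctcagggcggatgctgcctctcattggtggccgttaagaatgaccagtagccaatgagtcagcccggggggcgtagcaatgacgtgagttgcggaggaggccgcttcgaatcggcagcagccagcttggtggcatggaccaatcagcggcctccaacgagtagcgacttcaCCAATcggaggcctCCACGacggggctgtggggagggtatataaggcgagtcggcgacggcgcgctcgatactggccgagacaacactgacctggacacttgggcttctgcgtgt

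The element lay between 212 and 26 bases before the start in the 8 ERSE genes. The XBP1 core (ACGTGG, either strand) stood in 9 of 33 windows, or 27.3%, against 9.39% of the 27025 and 12.6% of the 9919 genes. In Herpud1 it overlaps the ERSE-II. The ATF4 core (TGATG, any 1 base, then AA) stood in 1 of 33, or 3.03%, the window of Herpud1. Its share was 4.51% of the 27025 and 3.1% of the 9919 genes. These matches describe letters in a window, not binding.

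**Figure D1:**
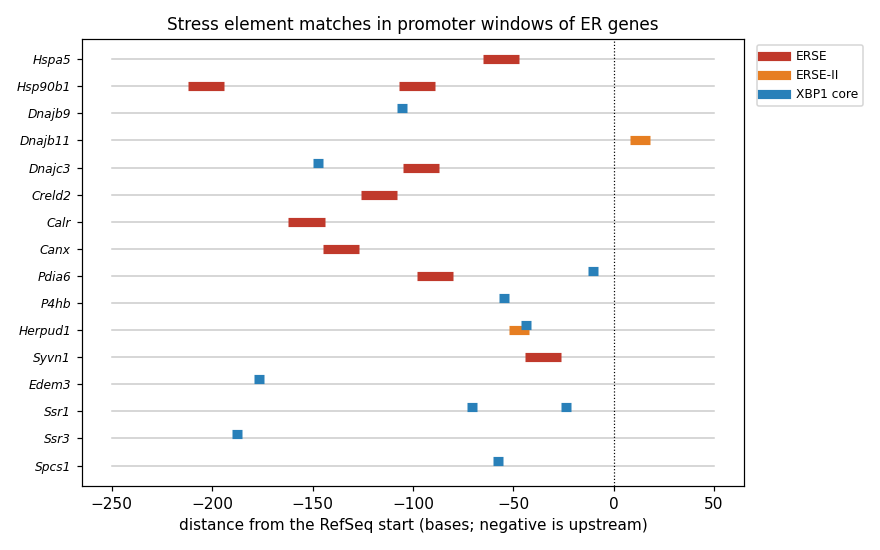
Position of the exact ERSE (red), ERSE-II (orange) and XBP1 core (blue, drawn slightly raised) in the RefSeq promoter windows of the 16 genes that hold at least 1 of them; the horizontal axis is distance from the gene's start in bases. Hsp90b1 holds 2 ERSE matches and Dnajb11 has its ERSE-II just after the start.

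None of the 41 genes passed the threshold (limma over all genes, Benjamini-Hochberg adjusted p under 0.05; smallest adjusted p = 0.63), where 0.00692% of all genes did, which is 1 gene of 14450. At an unadjusted p under 0.05 there was 1 of 41 genes, or 2.44%, against 4.51% of all genes, and the 1 was Pdia4. Of the 41 genes, 29 had a higher mean log2 level in Chat+, or 70.7%, against 57.0% of all genes, and 0 had groups without overlap, against 1.43% of all genes. The median log2 fold change was 0.09 over the 41 genes and 0.04 over all genes. In pooled cells, a lower level cannot be told apart from fewer cells that carry the transcript.

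Most confidence intervals were narrow. Log2 fold changes ran from -0.485 for Sec61g to 0.505 for Pdia4, and 38 of the 41 lay between -0.25 and 0.25, against 65.0% of all genes. The 95% confidence interval, not adjusted for the number of genes, lay wholly inside a 1.5-fold difference in either direction for 35 of the 41 genes, against 44.1% of all genes. It lay inside a 2-fold difference for 40 of them, Sec61g being the exception, against 64.4% of all genes. These shares were not matched for level. All 41 genes had a mean of at least 1 CPM, as did 12904 of the 14450, and just 1 of the 41 was under 5 CPM. Without Chat- replicate 4, 25 of 41 genes were higher in Chat+ and the median was 0.03, and with median-ratio scaling of the libraries the values were 25 and 0.05.

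**Figure D2:**
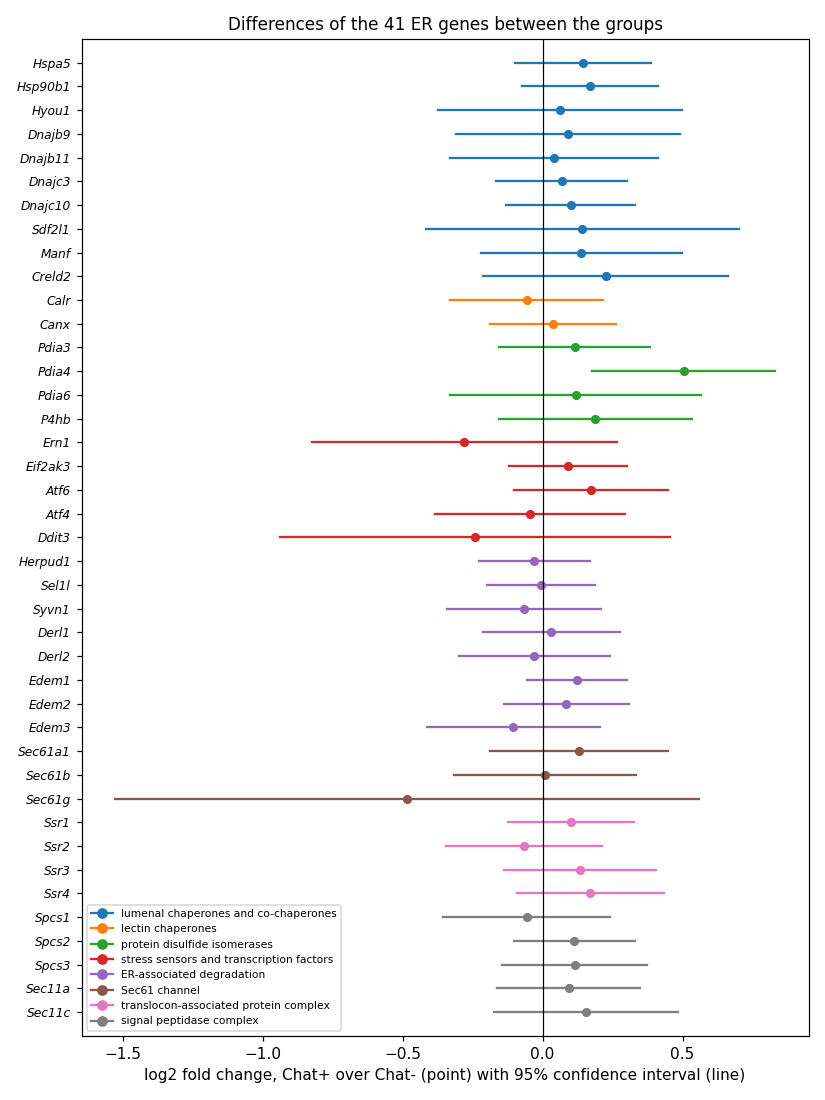
Log2 fold change of Chat+ over Chat- for each of the 41 genes (point) with its 95% confidence interval (line, limma, 5 libraries per group), coloured by role. The interval of Pdia4 is the 1 that does not cross 0, and that of Sec61g is the widest.

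The 3 sensors of the unfolded protein response were present in both groups at levels that overlapped. Eif2ak3, whose product PERK phosphorylates a translation factor, had 134.8, 126, 151, 158 and 154 CPM in Chat+ replicates 1 to 5, against 142, 128, 136, 122 and 150.3 CPM in Chat- replicates 1 to 5. Atf6, a membrane-bound factor that is cut free under stress, had 96.0, 84.8, 85.6, 91.2 and 124 CPM in Chat+, against 71.3, 81.9, 82.3, 92.2 and 98.0 CPM in Chat-. Chat+ replicate 5 was the highest library for Atf6, and the other 4 Chat+ libraries lay inside the Chat- range.

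Ern1, whose product IRE1 splices the mRNA of Xbp1, was far lower. It had 9.52, 6.20, 15.1, 11.3 and 14.4 CPM in Chat+, against 10.4, 11.6, 14.9, 14.0 and 15.3 CPM in Chat-. Per kilobase of the longest coding transcript this was 1.62 CPM for Chat+ and 1.91 CPM for Chat-, while Eif2ak3 had 32.1 and 30.1 CPM and Atf6 13.3 and 11.8 CPM per kilobase, in that order of groups.

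The log2 fold changes of the sensors were 0.09 ± 0.10 for Eif2ak3, 0.17 ± 0.13 for Atf6 and -0.28 ± 0.25 for Ern1 (SE; limma adjusted p = 0.999 each). Leaving out single libraries moved Ern1 to between -0.40 and -0.083 (without Chat+ replicates 3 and 2), Atf6 to as little as 0.077 (without Chat+ replicate 5) and Eif2ak3 to as little as 0.052 (without Chat- replicate 4). Xbp1, the factor that IRE1 activates, had 74.9 ± 10.9 CPM for Chat+ and 75.1 ± 6.31 CPM for Chat- (SD, n = 5), and gene-level values do not show whether its mRNA was spliced.

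The transcription factors of the PERK branch also overlapped. Atf4, which is translated when PERK is active, had 217, 182, 178, 189.7 and 132 CPM in Chat+, against 221, 209, 199, 163 and 138 CPM in Chat-. Ddit3, the gene of the pro-apoptotic factor CHOP and a target of ATF4, had 22.4, 16.5, 15.3, 16.4 and 5.87 CPM in Chat+, against 20.98, 20.1, 19.0, 12.4 and 12.9 CPM in Chat-. Replicate 5 was the lowest library of its group for Atf4 in both groups, and Chat+ replicate 5 had the lowest Ddit3 of all 10 libraries.

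The log2 fold change was -0.05 ± 0.16 for Atf4 and -0.24 ± 0.32 for Ddit3 (SE; limma adjusted p = 0.999 each). Without Chat+ replicate 5 both turned positive, to 0.06 and 0.07. The value of Atf4 was -0.088 without Chat- replicate 4. Exons of Ddit3 overlap those of Mars on the other strand, and whether the counting used strand is not given in the sources used here.

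**Figure D3:**
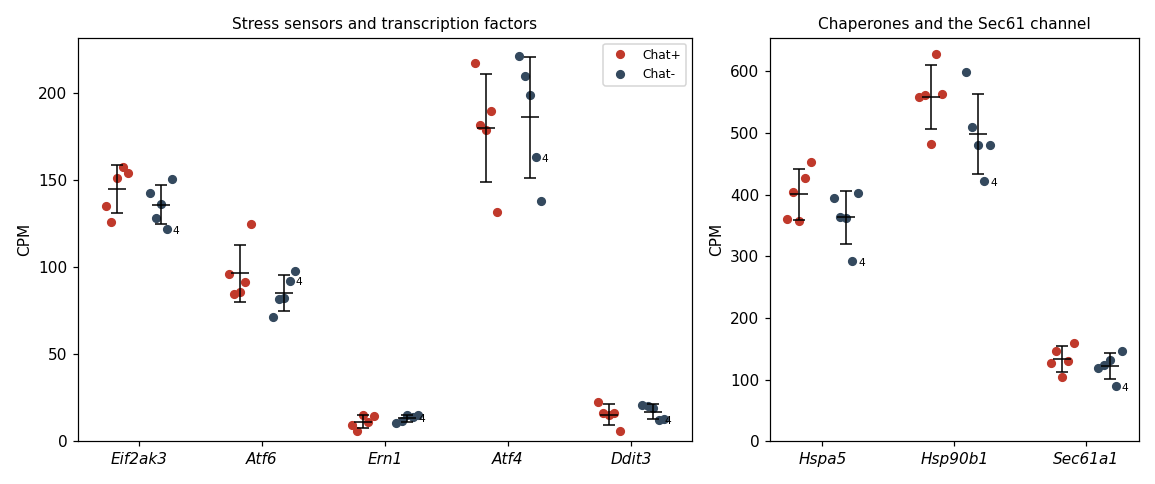
CPM (vertical axis, starting at 0) of the 5 sensor and factor genes, left, and of Hspa5, Hsp90b1 and Sec61a1, right, in each Chat+ library (red) and each Chat- library (blue), with mean and SD in black; the small 4 marks Chat- replicate 4. The groups overlap for all 8 genes, and Chat- replicate 4 is the lowest library for Hspa5, Hsp90b1 and Sec61a1.

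Chaperones of the ER lumen had a higher mean log2 level in Chat+ for all 10 genes of the group, by a median log2 fold change of 0.12 (9 of 10 with median-ratio scaling), but 0 passed the test. Hspa5 had 359.9, 404, 358, 427 and 453 CPM in Chat+, against 395, 364, 361, 292 and 402 CPM in Chat-. Hsp90b1, the gene of the ER form of HSP90 that folds integrins and Toll-like receptors, had 558, 562, 482, 627 and 563 CPM in Chat+, against 598, 509, 480.5, 422 and 480.4 CPM in Chat-. Both genes had Chat- replicate 4 as their lowest library.

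Creld2, a secreted stress-induced protein gene, had 35.8, 39.9, 29.5, 29.9 and 31.7 CPM in Chat+, against 36.2, 31.1, 32.2, 16.3 and 30.8 CPM in Chat-. The 3 genes had log2 fold changes of 0.14 ± 0.11 (Hspa5), 0.17 ± 0.11 (Hsp90b1) and 0.23 ± 0.20 (Creld2; SE, limma adjusted p = 0.999 each). Without Chat- replicate 4, the values were 0.068 for Hspa5, 0.111 for Hsp90b1 and 0.028 for Creld2, and 6 of the 10 genes were higher in Chat+ with a group median of 0.03.

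The other chaperone genes had log2 fold changes of 0.04 to 0.14. Without Chat- replicate 4 the signs of Hyou1 (-0.134), Dnajb11 (-0.122), Sdf2l1 (-0.064) and Manf (-0.003) were negative, and Dnajb9 stood at 0.245. Hyou1, the nucleotide exchange factor of BiP, had 129 ± 24.6 CPM for Chat+ and 126 ± 31.3 CPM for Chat-, and Manf, a secreted stress-induced factor, 79.2 ± 11.99 and 72.7 ± 15.3 CPM (SD, n = 5). Among the J-domain partners of BiP, Dnajb9 had 31.7 ± 5.24 CPM for Chat+ and 30.2 ± 8.40 CPM for Chat-, Dnajb11 96.5 ± 14.0 and 95.1 ± 20.5 CPM, Dnajc3 87.0 ± 10.99 and 82.6 ± 7.07 CPM, and Dnajc10 75.2 ± 7.72 and 70.1 ± 6.91 CPM. Sdf2l1, which works with Dnajb11, had 17.8 ± 4.22 CPM for Chat+ and 16.4 ± 4.86 CPM for Chat-. Of the words of 31 bases in Dnajb9 transcripts, 10.8% also occur in a copy of the gene, so its value is less certain.

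The lectin chaperones, which hold glycoproteins until they are folded, differed in level and overlapped between the groups. Calr, the gene of calreticulin, had 565 ± 69.2 CPM for Chat+ and 589.6 ± 85.0 CPM for Chat-. Canx, the gene of calnexin, had 343 ± 46.8 and 333 ± 22.3 CPM (SD, n = 5). Per kilobase, Calr stood at 259 CPM for Chat+ and 270.0 CPM for Chat-, the highest of the 41 genes in both groups, with Sec11c (228 and 205 CPM) and Hsp90b1 (198 and 176 CPM) next.

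Protein disulfide isomerases form and rearrange the disulfide bonds on which antibodies depend, and Pdia4 was the 1 of the 4 genes under an unadjusted p of 0.05. Pdia4, the gene of ERp72 (ENSMUSG00000025823, chromosome 6, 47796141 to 47813430 on the minus strand of GRCm38), had 278, 293, 260.3, 290.3 and 359.8 CPM in Chat+, against 212, 228, 213, 143 and 262 CPM in Chat-. Every Chat+ library was above every Chat- library with 1 exception, since Chat- replicate 5 exceeded Chat+ replicate 3 by a small margin. The means were 296 ± 37.8 CPM for Chat+ and 212 ± 43.6 CPM for Chat- (SD, n = 5), and none of its 31-base words occur in other genes.

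The difference in Pdia4 was 1.42-fold (95% confidence interval 1.13 to 1.78; log2 fold change 0.505 ± 0.15, SE). It ranked at place 130 of 14450 genes by p (unadjusted p = 0.0056) and did not pass over all genes (limma adjusted p = 0.63). An exact two-sided permutation test of this gene alone gave p = 0.016, where the smallest possible value is 0.0079. Without Chat- replicate 4 the log2 fold change was 0.37 (limma adjusted p = 0.297). It passed under 2 of 20 alternatives, 1 of them library quality weights (log2 fold change 0.385, limma adjusted p = 0.046), a setting under which 105 genes passed.

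The other isomerases had values that overlapped widely. P4hb, which also serves prolyl hydroxylase, had 179.7, 176, 168, 181 and 219.6 CPM in Chat+, against 178, 174, 162, 105 and 206 CPM in Chat- (log2 fold change 0.19 ± 0.16, SE, limma adjusted p = 0.999). Without Chat- replicate 4 the log2 fold change was 0.034 for P4hb and -0.095 for Pdia6. Pdia3, the partner of the lectin chaperones, had 286 ± 55.7 CPM for Chat+ and 261 ± 20.97 CPM for Chat-, and Pdia6 140.1 ± 21.1 and 133 ± 36.1 CPM (SD, n = 5).

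As a share within each library, which a scaling factor for the library does not move, Pdia4 made up 31.3%, 32.8%, 33.6%, 32.6% and 33.0% of the CPM of the 4 isomerase genes in Chat+ replicates 1 to 5. In Chat- replicates 1 to 5 it made up 25.6%, 27.9%, 28.3%, 25.6% and 29.2%. The groups did not overlap in this share, with means of 32.7% ± 0.84 in Chat+ and 27.3% ± 1.63 in Chat- (SD, n = 5). The CPM of Pdia4 itself did overlap, while 1.43% of all genes had groups without overlap. The ratio of Pdia4 to Hspa5 was likewise 0.68 to 0.79 in Chat+ and 0.49 to 0.65 in Chat-. Both ratios hold Pdia4, the member with the smallest p, were chosen after the values were seen and were given no test. How often like ratios of other genes keep the groups apart was not counted.

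**Figure D4:**
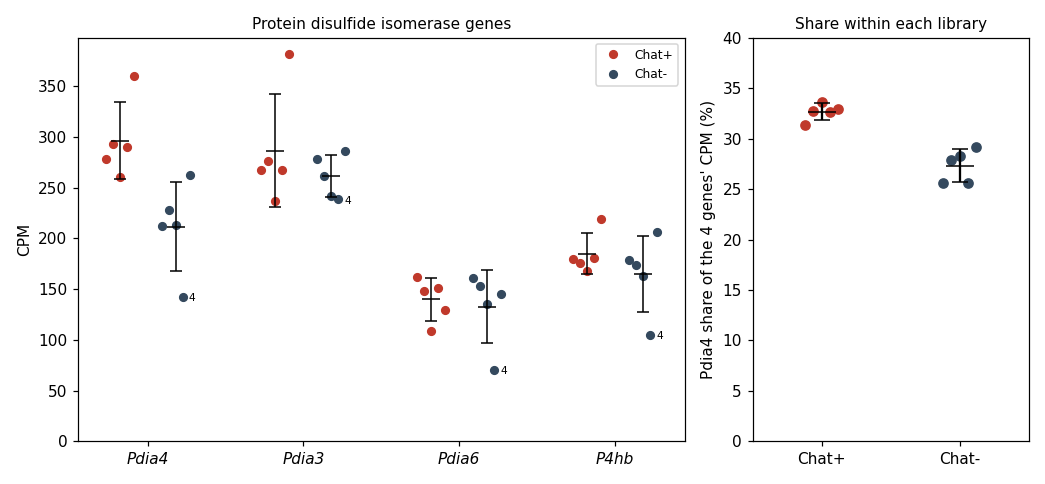
Left, CPM of the 4 protein disulfide isomerase genes in each Chat+ library (red) and each Chat- library (blue), with mean and SD in black and a small 4 beside Chat- replicate 4. Right, the share of Pdia4 in the summed CPM of the 4 genes, in percent, which is 31.3% to 33.6% in Chat+ and 25.6% to 29.2% in Chat-.

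Some transcripts of plasma cells varied widely between libraries. Jchain, the joining chain of secreted IgM and IgA, had 62.7, 160.4, 15.1, 33.6 and 213 CPM in Chat+, against 22.2, 26.1, 10.1, 19.4 and 35.8 CPM in Chat-. Mzb1, an ER protein of B cells and plasma cells that aids IgM assembly, had 186, 204, 145, 171 and 201 CPM in Chat+, against 171, 142, 118, 68.6 and 159 CPM in Chat-. In Jchain and Pdia4 alike, the highest Chat+ library was replicate 5, the lowest Chat+ library replicate 3 and the highest Chat- library replicate 5. The lowest Chat- library was replicate 3 for Jchain and replicate 4 for Pdia4. Chat- replicate 5 had more Jchain than Chat+ replicate 4 (35.8 against 33.6 CPM) but less Pdia4 (262 against 290.3 CPM). Mzb1 shared the lowest library of Pdia4 in both groups but was highest in Chat+ replicate 2 and Chat- replicate 1.

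Over the plasma cell marker list, 14 of 17 genes were measured, 9 of these were higher in Chat+ and 5 lower (Sdc1, Xbp1, Irf4, Eaf2 and Cd93), the median log2 fold change was 0.043, and the summed level was 1114 to 1367 CPM in Chat+ and 902 to 1175 CPM in Chat-. The defining factor Prdm1 stayed at 1.45 to 3.22 CPM in Chat+ and 1.51 to 4.41 CPM in Chat-. The part of plasma cell transcripts in the Pdia4 difference was not tested.

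The Sec61 channel, the pore through which new proteins enter the ER, had 2 of 3 genes with a higher mean log2 level in Chat+, and 0 passed. The count was 1 of 3 with median-ratio scaling or without Chat- replicate 4. Sec61a1, the gene of the pore subunit, had 127, 146, 104, 129.8 and 159 CPM in Chat+, against 119, 124, 132, 89.0 and 146 CPM in Chat- (log2 fold change 0.13 ± 0.15, SE, limma adjusted p = 0.999). Without Chat- replicate 4 it was 0.021 for Sec61a1 and -0.095 for Sec61b. Sec61b, a small stabilizing subunit, had 47.7 ± 4.72 CPM for Chat+ and 48.0 ± 10.3 CPM for Chat- (log2 fold change 0.009 ± 0.149, SE). Of its 31-base words, 23.5% also occur in other genes, mostly in Gm10320, which had at most 2.82 CPM for Chat+ and 1.02 CPM for Chat-.

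The gamma subunit gene Sec61g had the lowest level per kilobase of the 41 genes. It had 0.52, 1.56, 0.55, 0.77 and 2.32 CPM in Chat+, against 1.06, 1.46, 1.48, 1.58 and 1.51 CPM in Chat-. Per kilobase this was 0.61 CPM for Chat+ and 0.76 CPM for Chat-, against 42.0 and 38.5 CPM for Sec61a1, its partner in the same complex.

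A pseudogene copy of Sec61g had a far higher level than the gene. The transcribed processed pseudogene Gm10177 (chromosome 9, 37252922 to 37253365 in GRCm38), of whose 31-base words 94.2% also lie in Sec61g transcripts, had 28.1, 41.3, 34.5, 31.2 and 41.4 CPM in Chat+, against 31.1, 28.8, 27.8, 33.5 and 33.5 CPM in Chat-. The sum of gene and copy was 36.4 ± 6.65 CPM for Chat+ and 32.4 ± 2.65 CPM for Chat- (SD, n = 5). How reads were shared between the pair cannot be told from gene-level values, so the level of Sec61g and its log2 fold change of -0.485 ± 0.48 (SE, limma adjusted p = 0.999) are uncertain.

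The translocon-associated protein complex, which helps some signal peptides open the channel, had 3 of 4 genes higher in Chat+ and 0 that passed. Ssr4 had 54.9, 49.3, 60.6, 44.0 and 57.1 CPM in Chat+, against 49.7, 39.4, 46.8, 53.3 and 46.8 CPM in Chat- (log2 fold change 0.17 ± 0.12, SE, limma adjusted p = 0.999). Ssr1 had 142 ± 18 CPM for Chat+ and 132 ± 10.6 CPM for Chat-, Ssr2 46.5 ± 6.94 and 48.4 ± 4.76 CPM, and Ssr3 139 ± 22.9 and 126 ± 15.1 CPM (SD, n = 5). Chat+ replicate 5 was the highest of the 10 libraries for Ssr1, Ssr2 and Ssr3.

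In the signal peptidase complex, which cuts the signal peptide from the entering chain, 4 of 5 genes had a higher mean log2 level in Chat+ and 0 passed. Spcs2, an accessory subunit, had 116, 130.1, 114, 122 and 120.4 CPM in Chat+, against 126, 114, 106, 92.5 and 121 CPM in Chat- (log2 fold change 0.11 ± 0.10, SE, limma adjusted p = 0.999), and its log2 fold change was 0.047 without Chat- replicate 4. The catalytic subunit genes are Sec11a, with 64.3 ± 6.18 CPM for Chat+ and 60.5 ± 8.63 CPM for Chat-, and Sec11c, with 196 ± 32.4 and 176 ± 32.4 CPM (SD, n = 5). Spcs1 had 51.9 ± 6.88 CPM for Chat+ and 54.1 ± 8.79 CPM for Chat-, and Spcs3 128 ± 23.1 and 117 ± 7.80 CPM.

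Genes of ER-associated degradation, which pull misfolded proteins back to the cytosol for the proteasome, had 3 of 8 members higher in Chat+, 0 that passed, and log2 fold changes of -0.10 to 0.12. Edem1, a mannosidase-like protein that picks out glycoproteins for degradation, had 153, 165, 144, 159 and 170.2 CPM in Chat+, against 145, 146, 153, 148 and 134 CPM in Chat- (log2 fold change 0.12 ± 0.08, SE, limma adjusted p = 0.999). The relatives Edem2 and Edem3 had 52.0 ± 4.76 and 61.5 ± 11.9 CPM in Chat+, and 48.9 ± 3.53 and 65.3 ± 6.72 CPM in Chat-.

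The ubiquitin ligase Syvn1 (HRD1) had 264 ± 40.6 CPM for Chat+ and 275 ± 30.7 CPM for Chat-, and its partner Sel1l 100.4 ± 6.77 and 100.9 ± 7.34 CPM (SD, n = 5). Herpud1, a stress-induced scaffold of the same complex, had 138 ± 11.9 CPM for Chat+ and 140.3 ± 9.89 CPM for Chat-. The channel genes Derl1 and Derl2 had 108 ± 9.62 and 67.9 ± 9.95 CPM in Chat+, and 106 ± 13.7 and 69.0 ± 7.45 CPM in Chat-.

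The 10 genes whose promoter window holds an exact ERSE or ERSE-II were set beside the other members as a description. Of these 10 genes, 7 were higher in Chat+, the median log2 fold change being 0.055 with a range of -0.07 to 0.23. Of the 23 genes with a window that holds neither, 15 were higher, with a median of 0.09. Pdia4 is among these 23. The median of the 8 genes without a window was 0.12.

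Single libraries stood out across many members. Chat- replicate 4 was the lowest of the 10 libraries for 19 of the 41 genes, and it was the lowest for 31.6% of all genes. Against the mean of the other Chat- libraries it was lower by a log2 difference of -1.07 for Pdia6, -1.03 for Sdf2l1, -0.99 for Creld2 and -0.98 for Hyou1, while Dnajb9 was higher there by 0.77 and Spcs1 by 0.41. Among the lumenal chaperones 9 of 10 were lowest there, Dnajb9 being the exception, and among the isomerases all but Pdia3. Macrophage and stromal transcripts were high there as well, with summed levels over the 2 lists of 230.5 and 556 CPM in Chat- replicate 4. The other Chat- libraries had at most 65.55 and 323 CPM, and the Chat+ libraries 62.1 to 115 and 287.5 to 415 CPM. Not all genes of the lists were high there. Pecam1, the largest of the stromal list, was at 177.4 CPM, the lowest of the 10 libraries, and Lepr was listed at 0. The part of macrophage and stromal transcripts in the ER values of this library was not tested.

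Chat+ replicate 5 was the highest library for 17 of the 41 genes, while it was the highest for 12.6% of all genes. The summed level of the 41 genes was 6327 CPM there, against 5448 to 5880 CPM in the other Chat+ libraries and 4819 to 5931 CPM in Chat-. Not all members were high there: Ddit3, Atf4, Syvn1 (198.7 CPM) and Sec11c (147.7 CPM) were the lowest of the Chat+ group. Hyou1 (109 CPM), Dnajb11 (85.7 CPM), Pdia6 (129.6 CPM) and Derl2 (59.65 CPM) were the second lowest.

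**Figure D5:**
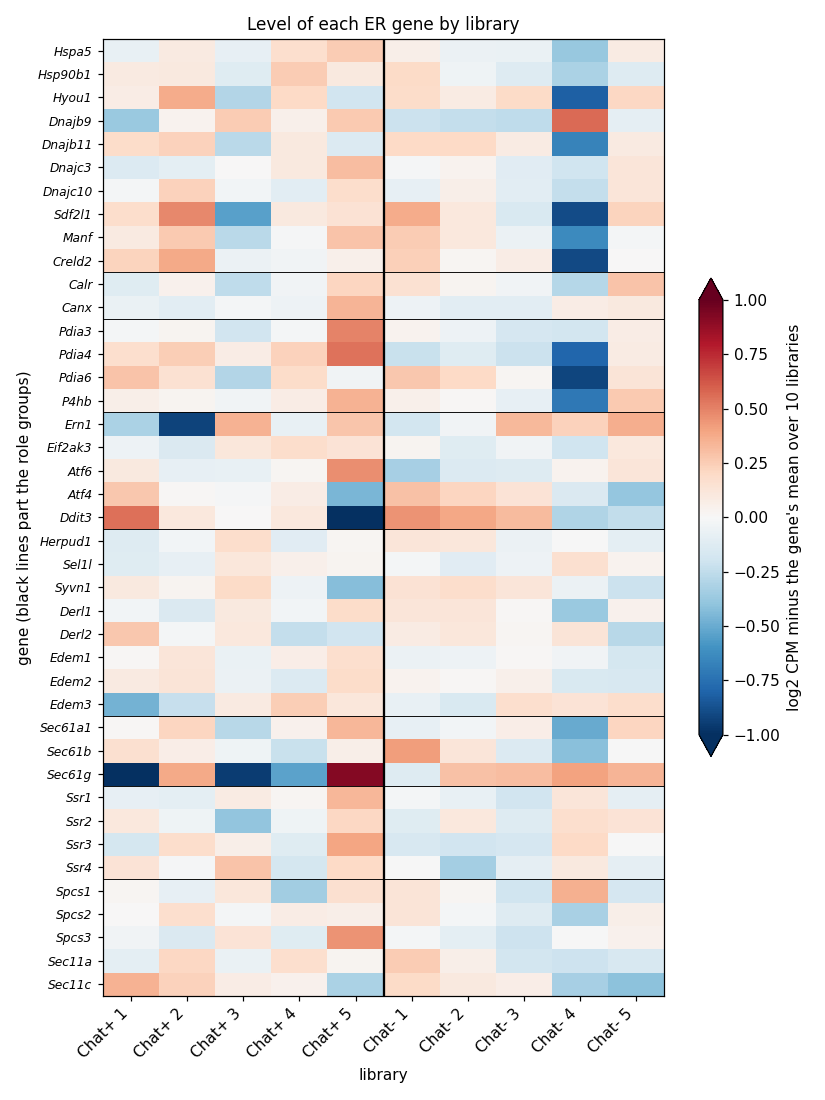
Log2 level of each of the 41 genes in each library, minus the gene's mean over the 10 libraries (red higher, blue lower, colours limited to 1 in either direction), with Chat+ libraries left of the black line and Chat- libraries right of it. Chat- replicate 4 is blue for most chaperone and isomerase genes, Chat+ replicate 5 is red for many genes but blue for Ddit3, and the row of Pdia4 is red across Chat+.

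Other genes of the same pathways gave no call. Over 8 further lists, 133 of 149 genes were measured, and 0 passed the threshold. An unadjusted p under 0.05 was found for 2 of the 133, against 4.51% of all genes. In Chat+, 83 of the 133 were higher, against 57.0% of all genes. The median log2 fold change was 0.04, the same as over all genes. The unfolded protein response regulators outside the 41 had 9 of 15 genes higher in Chat+, the signal recognition particle 9 of 10, the oligosaccharyltransferase 9 of 12, and glycan trimming 8 of 14. The other disulfide and proline isomerase genes had 15 of 22 higher, the other degradation genes 13 of 26, and the other translocation genes 8 of 18. Among targets of ATF4 and CHOP, 12 of 16 were higher, with a median of 0.10.

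The 2 genes under an unadjusted p of 0.05 lay in different branches. Slc3a2, a subunit of amino acid transporters and a target of ATF4, had 88.0 ± 4.51 CPM for Chat+ and 101.0 ± 3.76 CPM for Chat- (SD, n = 5; log2 fold change -0.20 ± 0.08, SE, limma adjusted p = 0.999), with no overlap between groups. Derl3, a degradation channel gene of secretory cells, had 4.23 ± 1.66 CPM for Chat+ and 1.68 ± 0.95 CPM for Chat- (log2 fold change 1.75 ± 0.77, SE, limma adjusted p = 0.999), and Chat- replicate 4 is listed at 0. Without that library the log2 fold change of Derl3 was 0.898 ± 0.32 (SE, limma adjusted p = 0.518). Next in the lists came Fkbp11 and Prdx4, lumenal folding enzymes of secretory cells, with 9.35 ± 1.96 and 19.2 ± 4.60 CPM in Chat+, and 6.49 ± 2.14 and 14.4 ± 2.15 CPM in Chat- (limma adjusted p = 0.999 each).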

How the data were processed

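Per the labels, RNA from sorted cells was made into libraries with a strand-specific kit. Per the submitters' processing notes, the tools were cutadapt 2.6, which trims reads, and Salmon 0.14.2, which estimates transcript abundance; the genome build was GRCm38.p6. Not given in the sources used here are the annotation, the strand setting and what made the log values. The deposited values are log2 values, log2(CPM + 0.1148), each library's CPM summing to 999999.8; this was read from the lowest value, -3.1228, which all 10 libraries share. Depth was estimated from the steps of low values, but just 35.4% to 48.8% of a library's values under 3 CPM came out as whole reads (tolerance 0.001), and count models were therefore left out.

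limma 3.58.1 (R 4.3.3; lmFit, eBayes with a mean-variance trend, group only, two-sided) was run across all 14450 genes on the values as deposited, with Benjamini-Hochberg adjustment over all of them and no filter. The code was tried on simulated data whose changes were larger than any found among the 41 genes. That trial cannot show whether differences as small as theirs would be called. Exact permutation tests used all 252 assignments of libraries. Gene symbols were matched for 14374 identifiers, and positions and the longest protein-coding transcript of each gene, which gives a rough scale per kilobase, come from GENCODE M21. Of the 41 genes, 29 have under 1% and 6 have over 5% of their 31-base words in common with another gene, and exons of 8 overlap a listed gene on the other strand.

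The 41 genes and the lists were chosen with earlier results of these data known. Given in full are the 10 genes with the smallest p and Hspa5, Hsp90b1, Ern1, Atf6, Eif2ak3, Atf4, Ddit3 and Sec61a1, 14 in all. From the pathway lists, up to 3 genes with the smallest p were eligible. Of the marker genes, the rule named those of the highest summed level, and Jchain and Chat. Fcer2a, Lepr, Mzb1 and Prdm1, and also Xbp1, Gm10177 and Gm10320, were chosen after their values were seen. Fcer2a and Ighd are the 2 B cell markers with an unadjusted p under 0.05 (limma). C-terminal retrieval signals were not analysed here. Figures were made with Python 3.11.15 and matplotlib 3.10.9.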

Additional observations from a re-analysis of the deposited data

Results flagged for a closer look

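In each group of 5 libraries, the gap between the extreme library and its nearest neighbour was set against the group's whole range (Dixon's test at 95%, critical value 0.71). Of 82 such tests on the 41 genes, 11 stood out, or 13.4%. Of these 11, 6 were in Chat- replicate 4, as were 2482 of the 4105 that stood out over all genes. Chance gives about 1 in 20, but the same measure stood out in 14.2% of tests over all genes, so the share among the 41 genes was near that of the whole table.

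In that library Hyou1 was at 70.7 CPM against 132 to 144 CPM in the other 4 Chat- libraries, Dnajb11 at 59.2 against 99.8 to 108 CPM, Creld2 at 16.3 against 30.8 to 36.2 CPM, Pdia6 at 70.5 against 135 to 161 CPM, and Derl1 at 82.4 against 107 to 116 CPM. Dnajb9 was high there, at 45.01 against 25.5 to 28.6 CPM.

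Chat+ replicate 5 was far from the other 4 Chat+ libraries in Canx, at 426 CPM against 312 to 332 CPM, in P4hb, at 219.6 against 168 to 181 CPM, and in Ddit3, at 5.87 against 15.3 to 22.4 CPM. Derl2 in Chat- replicate 5 was at 56.2 CPM against 68.9 to 74.4 CPM in the other Chat- libraries. Sec61g in Chat- replicate 1 was at 1.06 CPM against 1.46 to 1.58 CPM.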

How the results depend on the processing

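The median log2 fold change of the 41 genes (0.03 to 0.11) and the count higher in Chat+ (25 to 31) kept their direction under all 20 alternatives; the median was 0.0914 as reported and 0.0285 without Chat- replicate 4. Genes passing over the whole table, 1 as reported, numbered 3 without the mean-variance trend, 105 with library quality weights, 6 with the replicate block, 82 with the replicate block without Chat- replicate 4, 17 without the 3 libraries of lowest weight (Chat- replicate 4 and Chat+ replicates 3 and 5, an alternative chosen after the data were seen), and 1 to 6 when a library was left out (6 without Chat- replicate 4 or Chat+ replicate 5, 2 without Chat- replicate 1 or 3). Of the 41 genes, 1 passed with the weights and 1 with the replicate block without Chat- replicate 4, Pdia4 in both (adjusted p = 0.046 and 0.049), and 0 when a single library was left out. Over all alternatives the adjusted p of Pdia4 lay between 0.046 and 0.9998 and its log2 fold change between 0.33 and 0.59. At an unadjusted p under 0.05 there were 4 of the 41 with the replicate block without Chat- replicate 4 (Pdia4, Atf6, Ssr3 and Ssr4). Without the 3 libraries there were 2 of the 41 (Pdia4 and Ern1). Over all 14450 genes the counts under these 2 settings were 1985 and 1050, against 651 as reported. Among the 133 other pathway genes, 2 as reported, there were 1 without the trend and 11 with weights. The count was 15 with the replicate block without Chat- replicate 4 and 7 without the 3 libraries. It was 0 to 8 when a library was left out (8 without Chat- replicate 4). Over all genes it was 724 without the trend, 1310 with weights and 1058 without Chat- replicate 4. Without the 3 libraries the log2 fold changes of P4hb (-0.007), Eif2ak3 (-0.002), Atf4 (0.053) and Ddit3 (0.026) changed sign; leaving out 1 library gave -0.149 to 0.062 for Atf4 (positive without Chat+ replicate 5 and Chat- replicate 1 or 2) and -0.409 to 0.069 for Ddit3 (positive without Chat+ replicate 5). The cause was not tested.

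Own-number correlations between Chat+ and Chat- libraries were 0.265, 0.09, -0.061, -0.212 and 0.179 for replicates 1 to 5, and 3 of 5 Chat+ libraries (1, 2 and 5) correlated best with their own number, a hint of pairing from the data that the labels do not state. Median-ratio scaling set the median of all genes at -0.01 and that of the 41 at 0.05, turned the Sec61 channel median to -0.04 and left 9 of 10 lumenal chaperones higher. Genes at a few CPM, such as Sec61g and Derl3, rest on few reads.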
